A study of Mus musculus with 36 samples.

Results

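Acute phase proteins are plasma and defence proteins whose liver transcripts change in inflammation. The 10 genes described here are 4 serum amyloid A genes (Saa1, Saa2, Saa3 and Saa4), 3 orosomucoid genes (Orm1, Orm2 and Orm3), lipocalin 2 (Lcn2), haptoglobin (Hp) and hemopexin (Hpx). They were chosen by name, with earlier results of these data known. Each was read from the array feature (probe set) whose annotation names that gene and no other. All 10 had 1 such probe set, with none shared between members, and they are 10 of the 19938 genes so covered. All 10 passed a filter on dim signal (a mean log2 value over all samples above 6.11) that kept 13956 genes for testing. Saa1 passed only through its high fat diet samples, since its chow mean lay just below that limit.

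The samples were livers of C57BL/6J mice that were 16 weeks old when killed, fed without restriction and kept in 12 h of light and 12 h of dark. One diet was normal chow, and the other was a high fat diet that supplied 60% of its energy as fat, with 10 weeks on either diet. Livers were taken at 6 zeitgeber times (ZT, hours after lights on), 4 h apart from ZT0 to ZT20, which makes 12 groups of 3 samples. The labels give neither sex nor whether the numbered samples of a group were housed or handled apart, so p-values measure only the spread between these samples.

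In inflammation, interleukin 6 and its relatives act on hepatocytes through the shared receptor chain Il6st and the transcription factor Stat3, while interleukin 1 and tumour necrosis factor act through NF-kB. Both routes work together with C/EBP factors on the promoters of acute phase genes, and Socs3, Nfkbia and similar proteins switch the response off again. Serum amyloid A rides on high density lipoprotein, orosomucoids carry small molecules in plasma, Lcn2 withholds iron from bacteria by binding their siderophores, and Hp and Hpx clear free hemoglobin and heme.

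All values are log2(intensity + 16) of the deposited array intensities, a difference is high fat diet minus chow on that log2 scale, and ± is the SE of the fit or, beside a mean, the SD. A gene is said to rise or fall where limma's adjusted p was under 0.05 over all 13956 genes. Intensity of different probe sets is not comparable, so each gene is set only against itself. Array medians were 75.7 to 95.6, and arrays of 1 group correlated at 0.980 to 0.995. Of the liver's own defining genes, 10 hepatocyte markers were tested, and their summed intensity ran from 65139 to 76107 on chow and from 64595 to 73927 on the high fat diet.

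RefSeq (GRCm38.p6) gives a promoter sequence for 8 of the 10 genes, all but Orm1 and Hp. The sequences of Lcn2, Saa2 and Orm2 are shown because Lcn2 and Saa2 had the largest rises of the 10, and Orm2 moved with both between samples of a group without rising with the diet. Each is the 250 bases before the transcription start, 5′ to 3′ on the gene's strand, at chr2:32387740-32387989 (minus strand), chr7:46751583-46751832 (plus) and chr4:63362199-63362448 (plus). Capitals mark the letters TTGCNNAA, a core of C/EBP sites, found on either strand.
Lcn2: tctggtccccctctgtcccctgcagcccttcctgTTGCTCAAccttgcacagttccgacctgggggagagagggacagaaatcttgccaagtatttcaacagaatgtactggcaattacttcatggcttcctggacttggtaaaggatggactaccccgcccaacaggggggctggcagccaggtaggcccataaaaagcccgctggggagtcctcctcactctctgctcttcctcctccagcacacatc
Saa2: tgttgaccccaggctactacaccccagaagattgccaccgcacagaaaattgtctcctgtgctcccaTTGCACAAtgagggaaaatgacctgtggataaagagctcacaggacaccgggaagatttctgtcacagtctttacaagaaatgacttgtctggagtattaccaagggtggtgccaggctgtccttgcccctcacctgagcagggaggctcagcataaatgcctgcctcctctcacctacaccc
Orm2: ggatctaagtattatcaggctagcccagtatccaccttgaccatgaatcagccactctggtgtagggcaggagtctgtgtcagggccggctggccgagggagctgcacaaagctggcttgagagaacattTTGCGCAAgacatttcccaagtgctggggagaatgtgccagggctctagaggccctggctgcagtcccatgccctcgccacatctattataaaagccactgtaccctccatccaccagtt

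All 8 sequences held TTGCNNAA, which 9.56% of the 32851 RefSeq promoters of the same length hold. The stretches around the matches are shown, with up to 10 bases on each side and the same capitals, to set the close copies side by side; the Saa genes are copies of one another, as are the Orm genes, so their matches are not independent. Saa4 held 2 matches and the other 7 genes 1 each.
Lcn2 (216 bases before the start): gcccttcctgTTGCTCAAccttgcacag
Saa1 (182 before): tgtgctcccaTTGCACAAtgagggagaa
Saa2 (183 before): tgtgctcccaTTGCACAAtgagggaaaa
Saa3 (99 before): gtaagtgggaTTATGCAAgatcaaacag
Saa4 (245 before): gaaacTTGCCAAAacacaaacat
Saa4 (52 before): ccaggaaggaTTGAGCAAgagggactct
Orm2 (120 before): agagaacattTTGCGCAAgacatttccc
Orm3 (121 before): agggaacattTTGCACAAgacatttatc
Hpx (200 before): ggctggaaatTTGCTGAAgggggtaggg
The Saa1 and Saa2 sequences were identical at 238 of 251 aligned positions (94.8%), and those of Orm2 and Orm3 at 218 of 255 (85.5%). For Saa1, Saa3 and Orm3, 201, 250 and 89 of the 250 bases lie inside the gene's full span, so another transcript of these genes starts further upstream. The same search for TTCNNNGAA (STAT), for the NF-kB motif and for CACGTG (E-box) matched none of the 8, against 7.02%, 7.25% and 6.02% of all promoters. TTATGNAA (D-box) matched Saa3 alone, at the same 8 bases as the C/EBP letters, against 3.07% of all promoters. A match is a run of letters and not a measured binding site.

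The high fat diet moved the 10 genes in both directions. Averaged over the 6 times, Lcn2, Saa2, Saa1 and Hp rose, Orm1 and Orm3 fell, and Saa3, Saa4, Orm2 and Hpx did not pass the test. That is 4 of 10 higher, where 11.2% of all tested genes were called higher, and 2 of 10 lower, where 9.8% were called lower. Because the 10 genes were chosen with earlier results of these data known, both counts are a description. Saa1 entered the count of higher genes only because its high fat diet samples lifted its mean above the filter. Its call is therefore no support for that count. The median difference of the 10 genes was 0.12, and that of all tested genes was 0.02. In whole liver, a higher level in the same cells and a larger share of the cells that make a transcript cannot be told apart.

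**Figure D1:**
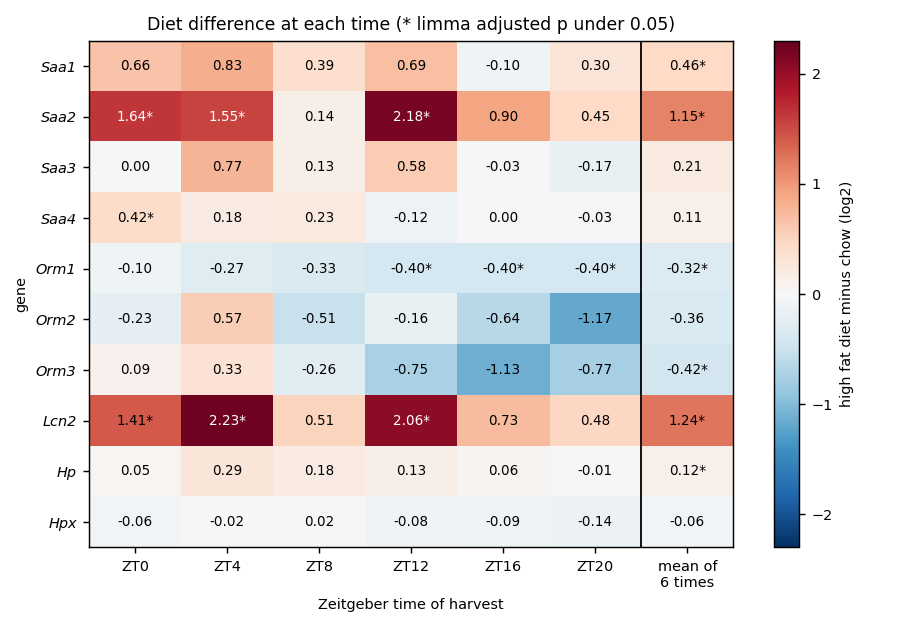
Difference of the high fat diet from chow for each gene (rows) at each zeitgeber time and averaged over the 6 times (columns), as log2 values printed in the cells and shown as colour; an asterisk marks an adjusted p under 0.05 in limma. Saa2 and Lcn2 are marked at ZT0, ZT4 and ZT12, and Orm1 at ZT12, ZT16 and ZT20.

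The acute phase serum amyloids are the near copies Saa1 and Saa2 on chromosome 7 (46740497 to 46743181 and 46751833 to 46754313 in GRCm38.p6). Older annotation uses these names the other way round, and here they follow the current gene identifiers. On chow Saa2 ran from 6.96 to 9.07 with a median of 7.70, and on the high fat diet from 7.42 to 10.37 with a median of 8.78. Of the 18 high fat diet samples, 17 lay above the chow median and 8 above the highest chow sample, so the ranges overlapped. The average difference was 1.15 ± 0.15, a 2.21-fold rise (limma adjusted p = 1.46e-06).

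The Saa2 differences were uneven over the day. At ZT12 the 3 chow samples read 7.77, 7.42 and 7.56 and the 3 high fat diet samples 9.35, 10.37 and 9.58. The groups were far apart there, by 2.18 ± 0.37 or 4.54-fold (limma adjusted p = 0.00042). At ZT8 the chow samples read 7.58, 7.93 and 7.72 and the high fat diet samples 8.25, 7.42 and 7.98. These overlapped, with a difference of 0.14 ± 0.37 (limma adjusted p = 0.936). Saa2 was also called at ZT0 (1.64 ± 0.37, limma adjusted p = 0.00941) and at ZT4 (1.55 ± 0.37, limma adjusted p = 0.0129). Both calls were lost when certain single libraries were left out, although the differences stayed positive. The ZT0 difference was 1.08 (adjusted p = 0.090) without high fat diet replicate 1 and 1.50 (adjusted p = 0.0559) without chow replicate 3. The ZT4 difference was 1.28 (adjusted p = 0.0842) without chow replicate 1, 1.40 (adjusted p = 0.0543) without chow replicate 3 and 1.34 (adjusted p = 0.104) without high fat diet replicate 1. At ZT16 and ZT20 the differences were 0.90 ± 0.37 and 0.45 ± 0.37 and did not pass the test.

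Saa1 was a dim probe set, with means of 6.11 ± 0.56 (SD, n = 18) on chow, just under the filter, and 6.57 ± 0.50 (SD, n = 18) on the high fat diet. A gene that passes the filter through 1 group has to differ between the groups, and with no filter the adjusted p in limma was 0.0373. Its values ran from 5.39 to 7.24 on chow (median 5.93) and from 5.54 to 7.69 on the high fat diet (median 6.60), and 16 of 18 high fat diet samples lay above the chow median. The ranges overlapped almost fully, with 1 high fat diet sample above the highest chow sample. The average difference was 0.46 ± 0.15 (limma adjusted p = 0.0308), positive at 5 of 6 times and called at none of them, and with an offset of 64 in place of 16 it was 0.28. At ZT4 it was 0.83 (limma adjusted p = 0.25). Without chow ZT4 replicate 2, the array of lowest quality weight, that ZT4 difference was 1.37 and called (limma adjusted p = 0.039), as it was without the 4 arrays of lowest weight (1.37, adjusted p = 0.0165) and with arrays weighted by quality (1.22, adjusted p = 0.00712). The average call was lost without any of 6 libraries. Leaving out chow ZT4, ZT16 or ZT20 replicate 1 or high fat diet ZT0 replicate 1, ZT8 replicate 1 or ZT12 replicate 2 put the adjusted p at 0.0539 to 0.0594, with differences of 0.39 to 0.42. Leaving out the ZT0, ZT4 or ZT12 samples gave 0.42, 0.39 and 0.42 (adjusted p = 0.0941, 0.0794 and 0.109). Signal shared between the probe sets of Saa1 and Saa2 was not measured.

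Saa3 is the amyloid that macrophages and fat also make, at chromosome 7, 46711998 to 46719615. It ran from 6.70 to 7.61 on chow (median 7.08) and from 6.57 to 8.11 on the high fat diet (median 7.18). The average difference of 0.21 ± 0.09 did not pass the test (limma adjusted p = 0.105). It passed without high fat diet ZT0 replicate 2 (0.25, adjusted p = 0.044) or ZT12 replicate 3 (0.26, adjusted p = 0.0341), and without the ZT20 samples (0.29, adjusted p = 0.0464). At ZT4 chow read 7.02, 6.70 and 6.80 and the high fat diet 7.20, 7.96 and 7.68, without overlap, and the difference of 0.77 ± 0.23 had a limma adjusted p of 0.0519. It was called without any 1 of 9 libraries (adjusted p from 0.0292 to 0.049), with a difference of 0.98 without high fat diet ZT4 replicate 1 and an unchanged one for the 8 from other times. It was also called with the 50th percentile filter (adjusted p = 0.0428), an offset of 64 (0.59, adjusted p = 0.0475) and quality weights (0.84, adjusted p = 0.00798). At ZT12 the difference was 0.58 ± 0.23 and not called, and without high fat diet ZT12 replicate 3 it was 0.85 and called (adjusted p = 0.0396).

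Most macrophage markers rose on the high fat diet, while the average Saa3 difference did not pass the test. Of 16 Kupffer cell and macrophage markers tested, 11 rose and none fell (median difference 0.29). The summed intensity of all 18 markers on the list ran from 3163 to 8041 on chow and from 4613 to 10463 on the high fat diet. Mpeg1 rose by 0.57 ± 0.07, Cd5l by 0.56 ± 0.10, Cd68 by 0.42 ± 0.10 and the Kupffer cell lectin Clec4f by 0.31 ± 0.07 (limma adjusted p from 0.00313 down). Across samples within groups, Saa3 correlated with these 16 genes at -0.44 to 0.27, with 8 of 16 positive. Of other cell types, 3 of 7 adipocyte markers rose, while Adipoq and Lep lay below the filter. Of 6 lymphocyte markers 3 rose and of 11 stellate cell and fibroblast markers 3 rose, with none falling in either list. Of all tested genes, 11.2% were called higher and 9.8% lower. The part of these cells in the Saa3 values was not tested.

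Saa4, the amyloid known as constitutive, is at chromosome 7, 46727992 to 46732603. Its ranges on the 2 diets nearly coincided, at 11.52 to 12.25 on chow (median 11.83) and 11.49 to 12.28 on the high fat diet (median 11.99). The average difference was 0.11 ± 0.05 (limma adjusted p = 0.115). It was called at 1 time: at ZT0 chow read 11.53, 11.69 and 11.58 and the high fat diet 12.16, 11.91 and 11.99, a difference of 0.42 ± 0.13 (limma adjusted p = 0.0376). The groups did not overlap there. That call was lost without any 1 of the 6 ZT0 libraries, with adjusted p from 0.0579 to 0.167, and the average was called without high fat diet ZT4 replicate 1 (0.14, adjusted p = 0.0395).

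Lcn2, at chromosome 2, 32384637 to 32387739, had the largest average difference of the 10 genes. Its chow samples stayed between 7.10 and 7.89 with a median of 7.23, and its high fat diet samples between 7.46 and 10.42 with a median of 8.22. All 18 high fat diet samples lay above the chow median and 12 lay above the highest chow sample. The average difference was 1.24 ± 0.16, or 2.35-fold (limma adjusted p = 1.07e-06).

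The Lcn2 differences were uneven across the hours of harvest. At ZT4 chow read 7.18, 7.52 and 7.21 and the high fat diet 9.90, 9.43 and 9.27. At ZT12 chow read 7.28, 7.55 and 7.22 and the high fat diet 9.10, 10.17 and 8.95. Neither pair of groups came near overlap, and the differences were 2.23 ± 0.39 (4.69-fold, limma adjusted p = 0.000741) and 2.06 ± 0.39 (4.16-fold, limma adjusted p = 0.00145). At ZT8, between them, chow read 7.17, 7.20 and 7.10 and the high fat diet 7.75, 7.49 and 7.77. All 3 high fat diet samples were still higher there, but the difference of 0.51 ± 0.39 did not pass the test (limma adjusted p = 0.745). At ZT16 and ZT20 the differences were 0.73 ± 0.39 and 0.48 ± 0.39, also short of it.

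At ZT0 a single library carried the Lcn2 difference. Chow read 7.27, 7.12 and 7.36, and the high fat diet read 10.42, 8.08 and 7.46. Replicate 1 was the highest Lcn2 value of all 36 samples, while replicate 3 was close to the highest chow sample. The difference was 1.41 ± 0.39 (limma adjusted p = 0.0274), and without high fat diet replicate 1 it was 0.52 (adjusted p = 0.262). Leaving out chow replicate 1, 2 or 3 also lost the call, with differences of 1.41, 1.34 and 1.46 and adjusted p of 0.0505, 0.0827 and 0.0749. The average Lcn2 difference without high fat diet ZT0 replicate 1 was 1.09 (adjusted p = 7.15e-10).

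Neutrophils also store the Lcn2 protein. Of 13 neutrophil markers, 8 lay below the filter, among them the defining genes Ly6g, Mpo, S100a8 and Ngp, whose values reached at most 6.05, 5.96, 6.40 and 5.63 in any sample. None of the 5 tested was called, beside 21% of all tested genes, and 2 of 5 had an unadjusted p under 0.05 in limma. S100a9 and Csf3r differed by 0.11 ± 0.05 and 0.12 ± 0.05 (limma adjusted p = 0.135 and 0.0681). The summed intensity of the list was 480 to 664 on chow and 509 to 703 on the high fat diet. Within groups, Lcn2 correlated with these 5 genes at 0.13 to 0.41 and with the 16 macrophage markers at -0.41 to 0.65, with 4 of 16 positive. The highest of the 16 was Itgam. With the 7 adipocyte markers tested, Lcn2 correlated at -0.06 to 0.68, with 6 of 7 positive and Plin4 highest. Adipoq, Lep and Ucp1 of that list lay below the filter, and the 7 include the bright Pck1 (mean 12.10). These 7 values therefore do not measure a share of fat cells. The part of any of these cell types in the Lcn2 values was not tested.

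**Figure D2:**
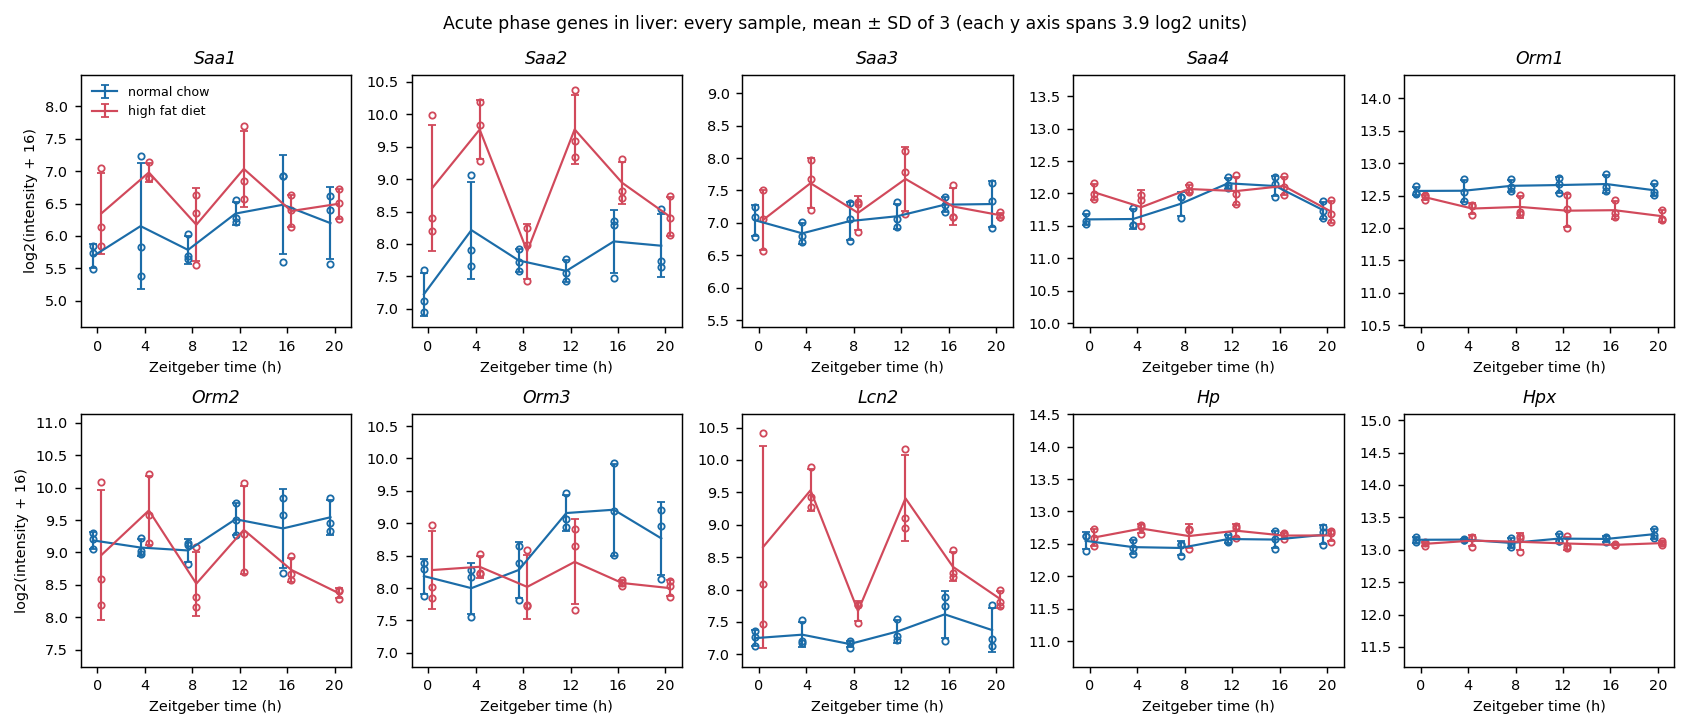
Each panel is 1 gene, with zeitgeber time in hours on the x axis and log2(intensity + 16) on the y axis, which spans the same number of log2 units in every panel. Open circles are the samples, lines join the means of 3 with bars of 1 SD, blue is normal chow and red is the high fat diet; Lcn2 and Saa2 stand high at ZT4 and ZT12 and low at ZT8 on the high fat diet, and Orm1 lies lower on the high fat diet at all 6 times.

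The orosomucoids, also called alpha-1-acid glycoproteins, lie side by side on chromosome 4. Orm1 and Orm3 fell on average, and Orm2 did not pass the test. Orm1 (63344556 to 63348163) ran from 12.41 to 12.84 on chow, with a median of 12.60, and from 12.00 to 12.51 on the high fat diet, with a median of 12.29. All 18 high fat diet samples lay below the chow median, and 12 lay below the lowest chow sample. Orm1 fell by 0.32 ± 0.04 on the log2 scale, with chow 1.24-fold higher (limma adjusted p = 3.40e-06).

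The fall of Orm1 was small and ran in the same direction at each time. From ZT0 to ZT20, in order of time, its differences were -0.10, -0.27, -0.33, -0.40, -0.40 and -0.40, each ± 0.11, and the 2 diets did not overlap at any of the 6 times. The last 3 were called (limma adjusted p = 0.0269, 0.0404 and 0.0458). These single-time calls were lost when certain single libraries were left out, although the differences stayed negative. At ZT12 the call was lost without chow replicate 2 or 3 or high fat diet replicate 1 or 3, and without the last of these the difference was -0.26 (adjusted p = 0.231). At ZT16 it was lost without chow or high fat diet replicate 2, chow replicate 3 or high fat diet replicate 1 (adjusted p from 0.0952 to 0.215). At ZT20 it was lost without any of 18 of the 36 libraries, 12 of them from other times, with differences of -0.35 to -0.45 and adjusted p from 0.0508 to 0.174. Of 10 hepatocyte markers 3 fell as well and 7 did not pass the test, beside 9.8% of all tested genes called lower. Tat fell by 0.18 ± 0.04, Cps1 by 0.16 ± 0.03 and Hnf4a by 0.13 ± 0.04, and their part in the Orm1 values was not tested.

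Orm3 (63356069 to 63359506) ran from 7.55 to 9.93 on chow (median 8.45) and from 7.66 to 8.97 on the high fat diet (median 8.09). It fell by 0.42 ± 0.14 on average (limma adjusted p = 0.0265), with a negative difference at 4 of 6 times. At ZT16 chow read 8.51, 9.19 and 9.93 and the high fat diet 8.04, 8.07 and 8.12, without overlap. That difference was -1.13 ± 0.33 (limma adjusted p = 0.068), and it was called without chow ZT16 replicate 1 (-1.48, adjusted p = 0.0212), and at an unchanged value without high fat diet ZT0 replicate 1, high fat diet ZT12 replicate 3 or chow ZT20 replicate 3 (adjusted p = 0.0439, 0.0436 and 0.050). At ZT12 and ZT20 the groups did not overlap either (-0.75 ± 0.33 and -0.77 ± 0.33, limma adjusted p = 0.21 and 0.288), while at ZT4 the difference was 0.33 ± 0.33. Without the ZT12, ZT16 or ZT20 samples the average difference was -0.35, -0.27 and -0.34, and the call was lost (adjusted p = 0.107, 0.201 and 0.10).

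Orm2 (63362449 to 63365877) ran from 8.68 to 9.85 on chow (median 9.25) and from 8.16 to 10.22 on the high fat diet (median 8.69). High fat diet samples lay both above and below all of chow, 3 above the highest and 9 below the lowest chow sample. The average difference was -0.36 ± 0.14 (limma adjusted p = 0.0714). It was called without high fat diet ZT0 replicate 1 (-0.45, adjusted p = 0.00583), high fat diet ZT4 replicate 1 (-0.40, 0.0406), ZT8 replicate 1 (-0.40, 0.0397), ZT12 replicate 2 (-0.42, 0.0286) or chow ZT16 replicate 1 (-0.41, 0.0284), the second number being the adjusted p. Without the ZT0 or the ZT4 samples it was -0.38 and -0.54 (adjusted p = 0.0445 and 0.0156).

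The Orm2 difference had opposite signs at ZT4 and ZT20. At ZT20 chow read 9.34, 9.85 and 9.45 and the high fat diet 8.42, 8.28 and 8.41. The groups were clearly apart, by -1.17 ± 0.35, and the limma adjusted p was 0.0728. It was 0.0185 without high fat diet ZT0 replicate 1 and 0.0468 without high fat diet ZT0 replicate 3. At ZT4 chow read 9.23, 9.03 and 8.98 and the high fat diet 10.22, 9.58 and 9.15. There the difference was 0.57 ± 0.35 and did not pass the test. Whether the diet difference changes with time was tested directly and did not pass for Orm2 (limma adjusted p = 0.324).

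Hp and Hpx are the bright plasma scavengers of the group. Hp (chromosome 8, 109575128 to 109579172) ran from 12.32 to 12.76 on chow (median 12.54) and from 12.41 to 12.80 on the high fat diet (median 12.66). The ranges overlapped nearly in full, although 15 of 18 high fat diet samples lay above the chow median. The rise was 0.12 ± 0.04, or 1.08-fold (limma adjusted p = 0.0315), and it was called at no single time. It was lost without any of 9 libraries (chow ZT0 replicate 3, ZT4 replicate 1, ZT8 replicate 1, ZT16 replicate 3 and ZT20 replicate 1, and high fat diet ZT0 replicate 1, ZT8 replicates 1 and 2 and ZT12 replicate 2), with differences of 0.10 to 0.11 and adjusted p from 0.0507 to 0.0593. Without the ZT4, ZT8 or ZT12 samples the adjusted p was 0.222, 0.0743 and 0.0906, with differences of 0.08, 0.10 and 0.11. Centring each array on its median also ended the call, at 0.08 with all probe sets and 0.11 with the tested genes (adjusted p = 0.168 and 0.0602).

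Hpx (chromosome 7, 105591611 to 105600116) was the least variable of the 10 genes, with an SD of 0.07 within groups. It ran from 13.04 to 13.32 on chow and from 12.97 to 13.22 on the high fat diet, with medians of 13.16 and 13.09. The difference was -0.06 ± 0.03 (limma adjusted p = 0.130), and with each array centred on its median over all probe sets it was -0.10 and called (limma adjusted p = 0.0165). The 2 red blood cell markers tested, Alas2 and Slc4a1, differed by -0.07 ± 0.05 and 0.02 ± 0.04 and were not called.

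At single times the calls fell in the early day and at dusk for genes called higher, and at dusk and in the night for Orm1, the gene called lower. At ZT0, 3 of 10 genes were called higher (Saa2, Lcn2 and Saa4) and none lower, beside 7.12% of all tested genes called in either direction, 3.37% higher and 3.75% lower. At ZT4 it was 2 of 10 higher and none lower, beside 3.69% of all genes in either direction, 2.29% higher and 1.4% lower. At ZT8 it was none of 10, beside 0.774% in either direction, 0.279% higher and 0.494% lower. Orm1 was the 1 gene of 10 with an unadjusted p under 0.05 in limma at ZT8. At ZT12, 2 of 10 were called higher and Orm1 lower, beside 5.44% of all genes in either direction, 2.47% higher and 2.97% lower. At ZT16 Orm1 alone was called, lower, beside 2.22% of all genes in either direction, 1.05% higher and 1.18% lower. At ZT20 it was again Orm1, lower, beside 2.04%, 1.24% and 0.803%. The median difference of the 10 genes was 0.45 at ZT4 and -0.08 at ZT20, and that of all genes was 0.02 and 0.01.

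The test of whether the diet difference changes over the 6 times (the diet by time interaction) called none of the 10 genes and 0.631% of all genes. The smallest adjusted p among the 10 were 0.157 for Saa2 and 0.195 for Lcn2, and 5 of 10 had an unadjusted p under 0.05. Without high fat diet ZT0 replicate 1, Lcn2 was called (limma adjusted p = 0.00124). With arrays weighted by quality, Saa2, Lcn2, Orm2 and Orm3 were called (limma adjusted p = 0.00637, 0.018, 0.047 and 0.032). The differences between times given above for single genes are therefore values and not changes that passed a test over all 36 arrays with equal weight.

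Time of day alone was tested within each diet. On chow, Saa4 and Orm3 changed with time, 2 of 10 genes beside 21% of all tested genes. On the high fat diet Saa2, Lcn2 and Orm2 changed, 3 of 10 beside 16.8%. In the values used, without further scaling and with equal weights on all arrays, no gene was called on both diets. Saa4 had an adjusted p of 0.0748 on the high fat diet, and it was called there with quantile normalization (0.0293), quality weights (0.000745), and without the 4 arrays of lowest weight (0.0356), high fat diet ZT12 replicate 3 (0.0488) or ZT20 replicate 2 (0.0466). Saa3 was called on the high fat diet without ZT12 replicate 3 (adjusted p = 0.0294).

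On the high fat diet the means of Lcn2 from ZT0 to ZT20 were 8.66, 9.53, 7.67, 9.41, 8.35 and 7.85 (limma F test, adjusted p = 0.00193). Those of Saa2 were 8.86, 9.77, 7.89, 9.77, 8.94 and 8.43 (limma F test, adjusted p = 0.00173). Both genes were high at ZT4 and at ZT12 and low in between, and for Lcn2 every ZT8 sample lay below every ZT4 and ZT12 sample. Orm2 had means of 8.96, 9.65, 8.52, 9.35, 8.73 and 8.37, also high at ZT4 and ZT12 but lowest at ZT20 (limma F test, adjusted p = 0.0411). The Orm2 call was lost without any of 11 high fat diet libraries, 2 each from ZT4, ZT8, ZT12 and ZT16 and all 3 from ZT20, with adjusted p from 0.055 to 0.138. Those of Saa2 and Lcn2 held in each of the 49 alternative settings run. On chow the means of Lcn2 stayed between 7.16 and 7.62 (adjusted p = 0.934) and those of Saa2 between 7.23 and 8.21 (adjusted p = 0.290).

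On chow, Saa4 and Orm3 followed a 24 h wave. Saa4 means from ZT0 to ZT20 were 11.60, 11.61, 11.84, 12.16, 12.12 and 11.74, highest around dusk. The fitted wave peaked at ZT13.5 with an amplitude, the distance from mean to peak, of 0.31 ± 0.06 (limma F test, adjusted p = 0.000348). Orm3 means were 8.18, 8.00, 8.28, 9.16, 9.21 and 8.77, high in the first part of the night. Its wave peaked at ZT15.2 with an amplitude of 0.66 ± 0.13 (limma F test, adjusted p = 0.000976). Both calls held in all 49 alternatives. That is 2 of 10 genes, beside 20.6% of all tested genes with a wave on chow.

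On the high fat diet limma called a wave in none of the 10 genes, beside 11% of all genes, and 0 of 10 had an unadjusted p under 0.05. The amplitude of Saa4 was 0.12 ± 0.06 and that of Orm3 was 0.08 ± 0.13. The test of the difference in wave between the diets called none of the 10 and 0.0287% of all genes, which is 4 genes, and 2 of 10 had an unadjusted p under 0.05. Orm3 had an unadjusted p of 0.00169 and an adjusted p of 0.279, and Saa4 an adjusted p of 0.573, so a loss of rhythm is not shown by these samples. With arrays weighted by quality the Orm3 difference had a limma adjusted p of 0.0211, and 185 genes in all were then called. Lcn2 and Saa2 had amplitudes of 0.29 ± 0.22 and 0.11 ± 0.23 on the high fat diet.

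**Figure D3:**
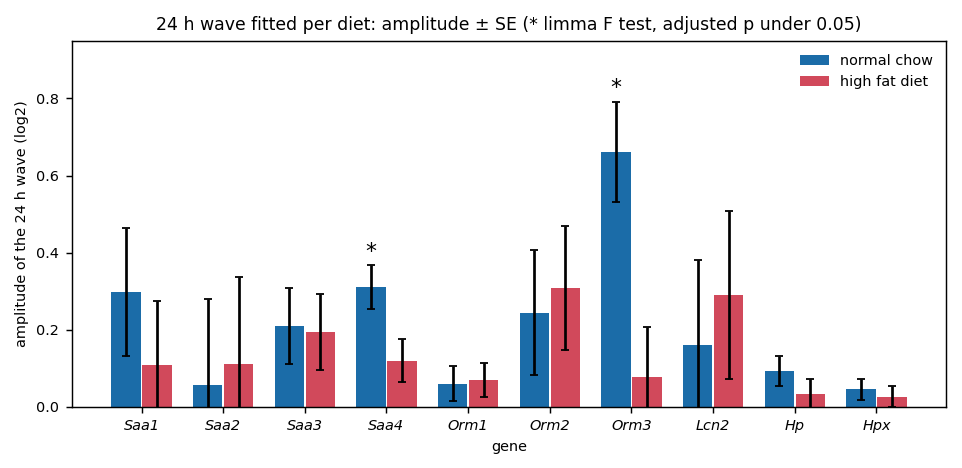
Amplitude of the fitted 24 h wave (log2, y axis from 0) of each gene (x axis) on normal chow (blue) and on the high fat diet (red), with bars of 1 SE and an asterisk where the limma F test had an adjusted p under 0.05. Saa4 and Orm3 carry the 2 asterisks, both on chow.

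Samples of the same group differed, and the 10 genes tended to differ together. After each group's mean was taken away, all 45 pairs of genes had a Pearson r above 0 over the 36 samples, 12 of them above 0.5, with a median of 0.31. By Spearman's rho 44 of 45 were above 0. With 2 samples left out per pair, 43 of 45 had an r above 0. Those 2 lay farthest from the median deviation of 1 gene of the pair, the one named first in the opening list. Samples extreme for the other gene could stay in. Of all pairs of tested genes 54% were above 0 and 7.47% above 0.5. Within the 18 high fat diet samples 45 of 45 pairs were above 0 and 23 above 0.5 (median 0.52), and within the 18 chow samples 32 of 45 and 9 of 45 (median 0.14). Of all pairs of tested genes, 52.9% were above 0 and 11.1% above 0.5 on the high fat diet, and 53.9% and 12.1% on chow. These values describe samples that share an array and its overall brightness, and the difference between the diets was not tested. The spread of Lcn2 within groups was 0.72 (SD) on the high fat diet and 0.23 on chow, and that of Orm2 was 0.58 and 0.31. The ZT0 group weighed heavily in the high fat diet values. By group, the Lcn2 SD there was 1.56 at ZT0 and 0.13 to 0.66 at the other times, beside 0.05 to 0.36 on chow. The Orm2 SD was 1.00 at ZT0 and 0.08 to 0.68 at the other times, beside 0.13 to 0.61 on chow.

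The strongest pair joined genes whose average diet differences had opposite signs, although that of Orm2 did not pass the test. Orm2, whose average difference was below 0, followed Lcn2 within groups at r = 0.80 (Spearman's rho 0.60), at 0.87 on the high fat diet and 0.48 on chow, and at 0.67 without high fat diet ZT0 replicate 1 and ZT12 replicate 2, the 2 samples farthest from the median deviation of Orm2. Over the 12 group means the same pair had r = 0.17. Saa2 followed Lcn2 at 0.78 within groups (rho 0.78, 0.87 on the high fat diet and 0.71 on chow) and at 0.95 over group means. Within groups, r was 0.74 without the 2 samples farthest from the median deviation of Saa2, and 0.72 without those of Lcn2. Orm1 and Lcn2 stood at 0.24 within groups and at -0.66 over group means.

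Close copies and scavengers paired as well. Orm2 followed Orm3 at 0.80 (rho 0.75), Orm1 followed Orm3 at 0.74 (rho 0.76), Saa1 followed Saa2 at 0.74 (rho 0.68) and Hp followed Hpx at 0.68 (rho 0.67). Signal shared between probe sets of close copies was not measured. Saa3 correlated with the other 9 genes at 0.09 to 0.31 over both diets. Within the high fat diet samples its values reached 0.56 with Hp, 0.52 with Orm3 and 0.52 with Saa1, where on chow they were -0.10, -0.21 and 0.03.

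**Figure D4:**
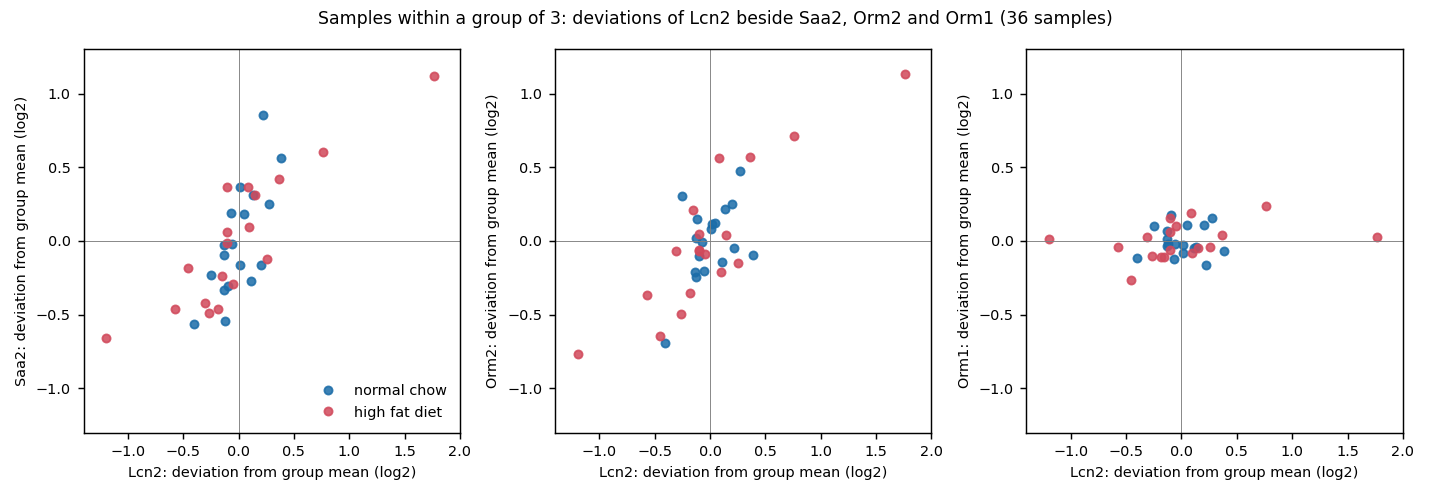
Deviation of each of the 36 samples from the mean of its group of 3 (log2), with Lcn2 on every x axis and Saa2, Orm2 and Orm1 on the y axes of the 3 panels; blue is chow and red the high fat diet. The red point far to the right is high fat diet ZT0 replicate 1, where Lcn2, Saa2 and Orm2 are all high and Orm1 is close to its group mean.

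One library shows the joint movement plainly. High fat diet ZT0 replicate 1 read 10.42 for Lcn2, 9.98 for Saa2 and 10.10 for Orm2, while replicates 2 and 3 read 8.08 and 7.46, 8.40 and 8.21, and 8.60 and 8.19. The same library read 11.67 for Cyp2b13, a cytochrome P450 known for higher levels in female than in male mouse liver, against 5.70 and 5.71 in the other 2. Other high fat diet samples read 9.43, 7.79 and 7.58 for Cyp2b13 at ZT4, and 5.84, 6.13 and 5.96 at ZT8. They read 8.11, 8.80 and 6.18 at ZT12, 7.73, 8.11 and 7.27 at ZT16, and 6.05, 5.61 and 6.92 at ZT20. Xist, which is transcribed from the inactive X chromosome of females, was at most 5.52 in any of the 36 samples, and the Y-linked Eif2s3y, Kdm5d and Uty were at least 8.87, 8.25 and 8.04 in each of them, this library included. The quality weight that limma estimates over all tested genes ranked the array of this library 20 of 36 from the lowest. Why this library differed was not tested.

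Cyp2b13 was the gene most like Lcn2 within groups, with r = 0.91 over 36 samples (rho 0.66, 0.93 on the high fat diet, 0.75 on chow, 0.78 without high fat diet ZT0 replicates 1 and 3). Orm2 came next and then Themis, a gene known from T cell development, at 0.79 (rho 0.51, 0.90 on the high fat diet and -0.47 on chow). Over the 12 group means the genes most like Lcn2 were Tceal8 at 0.97, the organic anion transporter family gene Slc22a27 at 0.96 and Saa2 at 0.95. All 4 of the genes outside the 10 were higher on the high fat diet (limma adjusted p of at most 0.00117). The differences were 1.56 ± 0.34 for Cyp2b13, 1.67 ± 0.19 for Themis, 1.63 ± 0.23 for Slc22a27 and 0.68 ± 0.10 for Tceal8. Cyp2b13 and Themis had chow means of 5.69 and 5.76, under the filter, so they passed it only through their high fat diet samples. Slc22a27 and Tceal8 were picked for likeness to the Lcn2 group means, which were themselves higher on the high fat diet. These differences are therefore a description and no independent result.

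Hp, Hpx and Orm1 had other plasma protein genes among their nearest. Within groups Hp was most like P4hb, a protein disulfide isomerase, at 0.85 (rho 0.86) and Itih4, another acute phase protein, at 0.83 (rho 0.77). Hpx was most like Rpl19 at 0.82 (rho 0.82), Ambp, the precursor of a heme binding plasma protein, at 0.79 (rho 0.84) and the complement factor Cfb at 0.77 (rho 0.78). Orm1 was most like 2310016G11Rik at 0.80 (rho 0.80) and the plasma protein fetuin-A, Ahsg, at 0.76 (rho 0.77), and over group means most like Abcc4 at 0.96 and Cyp2f2 at 0.94.

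Saa4 was most like Grtp1 at 0.84 (rho 0.83) and Kmo, an enzyme of tryptophan breakdown, at 0.80 (rho 0.81). Saa1 was most like Rhbg, an ammonium transporter, at 0.78 (rho 0.74), Saa3 most like Cc2d1b at 0.77 (rho 0.76), and Saa2 after Lcn2 most like Nek2 at 0.75 (rho 0.77). Orm2 had Lcn2 and Orm3 as its nearest genes and Rcan1 next, at 0.78 (rho 0.68). Orm3 had Orm2 and Orm1 and then Cyp2b10 at 0.74 (rho 0.69).

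Few of the upstream ligand and receptor genes were called. Of all tested genes, 11.2% were called higher and 9.8% lower. The list counts here and below stand beside those shares. Of 10 ligand genes 3 were tested, and Ctf1 (cardiotrophin 1, of the interleukin 6 family) rose by 0.15 ± 0.05 (limma adjusted p = 0.0217). Il6, Il1b, Tnf, Osm, Lif and Il11 lay below the filter, with no value above 6.35 in any sample. Of 11 receptor genes none rose and Lifr, the receptor of leukaemia inhibitory factor that pairs with Il6st, fell. Its chow samples ran from 11.16 to 11.74 and its high fat diet samples from 10.00 to 11.59, overlapping in part. The fall was 0.60 ± 0.09 on the log2 scale (limma adjusted p = 1.87e-05). Il6ra and Il6st differed by 0.11 ± 0.06 and -0.01 ± 0.03.

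Among 14 signalling and transcription factor genes 1 rose and none fell. It was Creb3l3, a membrane-bound liver transcription factor, at 0.17 ± 0.05 (limma adjusted p = 0.0119). Stat3 differed by -0.04 ± 0.04 and Cebpb by -0.11 ± 0.06, and neither passed the test. Cebpb and Cebpd had a 24 h wave on both diets, with Cebpb peaking at ZT13.3 on chow and ZT11.9 on the high fat diet with amplitudes of 0.43 and 0.42. The median difference of the 14 genes was 0.01, beside 0.02 for all genes.

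Of 13 feedback inhibitors tested, 5 rose and 2 fell (median difference 0.08), beside 11.2% and 9.8% of all tested genes. Il1rn, which blocks the interleukin 1 receptor, rose by 0.25 ± 0.04, the glucocorticoid-induced Tsc22d3 by 0.26 ± 0.06 and Tnfaip3, which restrains NF-kB signalling, by 0.17 ± 0.04 (limma adjusted p = 1.73e-05, 0.00165 and 0.00347). Socs2, which restrains growth hormone signalling, fell by 0.88 ± 0.18 (limma adjusted p = 0.000655). Socs3, the classical inhibitor of interleukin 6 signalling, differed by -0.20 ± 0.08 and did not pass the test (limma adjusted p = 0.0718).

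Most other positive acute phase genes were not called. Of 27 further positive acute phase genes 3 rose, 2 fell and 22 did not pass the test, with a median difference of -0.01. Of all tested genes 21% were called, 11.2% higher and 9.8% lower. The protease inhibitor Serpina3n rose by 0.22 ± 0.04, the metalloreductase Steap4 by 0.29 ± 0.05 and the copper carrier Cp by 0.15 ± 0.04 (limma adjusted p = 0.00010, 8.53e-05 and 0.00409). Hamp, which encodes the iron hormone hepcidin, fell by 0.35 ± 0.11 (limma adjusted p = 0.0215). Crp and Lbp differed by 0.04 ± 0.03 and -0.03 ± 0.04 and were not called.

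Of 17 negative acute phase genes, those known to drop in inflammation, 2 rose and 2 fell (median difference -0.01). Of all tested genes 11.2% rose and 9.8% fell. Serpina7, which encodes thyroxine-binding globulin, ran from 7.95 to 9.64 on chow and from 8.34 to 10.85 on the high fat diet, with overlap. It rose by 1.15 ± 0.19 (limma adjusted p = 3.1e-05). Serpina6, the carrier of glucocorticoids, rose by 0.28 ± 0.06, while Fetub fell by 0.26 ± 0.05 and Igfals by 0.23 ± 0.05. Alb, Ttr and Ahsg differed by 0.03, 0.07 and -0.02, each ± 0.03, and did not pass the test.

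Of 16 genes for partners and receptors of the 10 proteins, 1 rose and 2 fell, beside 11.2% and 9.8% of all tested genes. Hmox1, which breaks down the heme that Hpx delivers, rose by 0.29 ± 0.07 (limma adjusted p = 0.00192), and Blvrb, a biliverdin reductase, fell by 0.25 ± 0.05 (limma adjusted p = 0.000459). Cd163, the macrophage receptor of the Hp and hemoglobin complex, differed by 0.22 ± 0.10, and Lrp1, the Hpx receptor, by -0.02 ± 0.04, and neither was called.

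**Figure D5:**
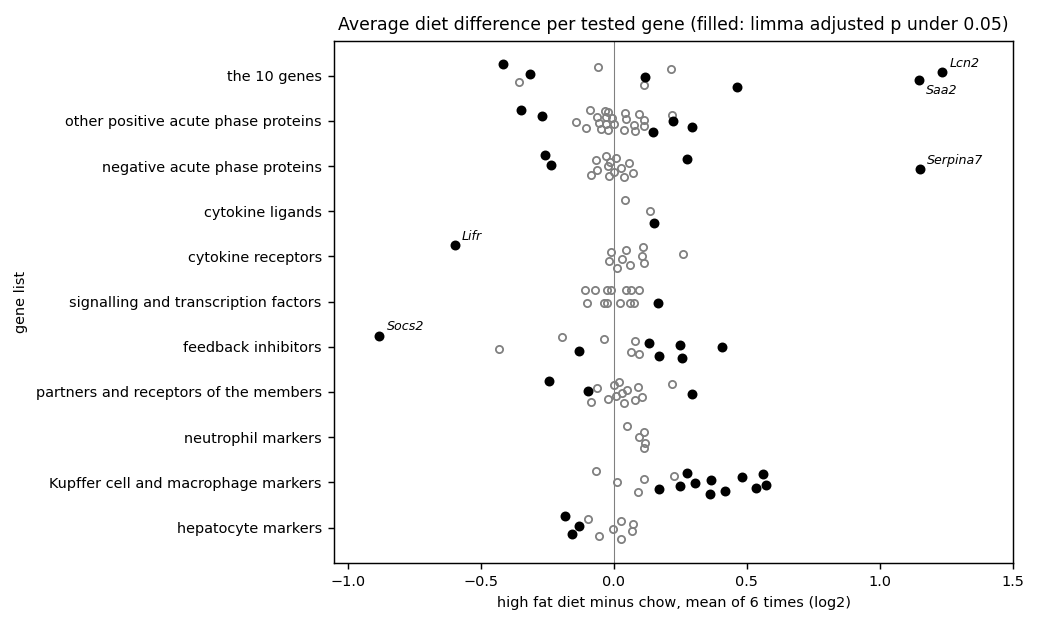
Average difference of the high fat diet from chow (log2, x axis) for every tested gene (points) of the 10 genes, of the pathway and protein lists, and of 3 marker lists (y axis); filled points had an adjusted p under 0.05 in limma, and called genes beyond 0.59 in either direction are named. Lcn2, Saa2 and Serpina7 lie farthest to the right and Socs2 and Lifr farthest to the left, and 11 of 16 macrophage markers are filled on the right.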

How the data were processed

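The 36 liver arrays are Affymetrix whole-transcript gene arrays, 1 per sample. The authors deposited a linear intensity per probe set, made with Affymetrix Expression Console 1.1.1 and PLIER 2.0 per the submitters' processing notes; whether arrays were background-corrected or scaled to each other is not given in the sources used here. Values were used without further scaling as log2(intensity + 16), which understates the change of dim probe sets.

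The platform annotation gave the gene names (of the probe sets, 21789 name 1 gene, 1621 several, and 12146 are not listed), with symbols updated by gene identifier for 99.6% of those that name 1 gene. The brightest probe set stood for a gene, and genes above the 30th percentile of mean log2 value (6.11) were tested. limma 3.58.1 in R 4.3.3 fitted 1 mean per diet and time over all 36 arrays (24 residual degrees of freedom), and a second fit gave each diet a mean and a 24 h cosine and sine. p-values were adjusted by Benjamini-Hochberg over all 13956 tested genes in each test. Sequences were aligned with Biopython 1.88 (Python 3.11.15). The number of arrays limits the precision. The scripts were tested on simulated data.

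The members, the lists and the alternatives were chosen with earlier results of these data known, and median centring over the tested genes was added after seeing the data. The motif letters come from general knowledge of these factors. All 10 genes are reported; of other lists, the text names up to 4 called genes with the smallest p (or the 2 with the smallest p where none was called), and of genes alike, the 3 with the highest r within groups or over group means. Il6ra, Il6st, Stat3, Cebpb, Cebpd, Socs3, Crp, Lbp, Alb, Ttr, Cd163, Lrp1, Xist, Eif2s3y, Kdm5d and Uty were named after their values were seen.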

Additional observations from a re-analysis of the deposited data

How the results depend on the processing

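Over 55 alternatives the average rises of Lcn2 (1.04 to 1.39) and Saa2 (0.94 to 1.35) and the average fall of Orm1 (-0.36 to -0.29) were called each time. No average difference changed direction, nor did any single-time difference with an unadjusted p under 0.05 in limma. The other single-time differences, among them those near 0, were not followed through the alternatives. Of the recomputed single-gene values, 99 lost their call and 61 gained one. Same-numbered chow and high fat diet samples of a time deviated together (r over 0.1) in 5 of 18 pairs, from -0.41 to 0.35. That compares only 2 samples of 1 time, so it cannot show whether a number marks a batch running over all groups. With the replicate block no gene was called lower at ZT20 (0). Saa3 at ZT4 (adjusted p = 0.0461) and Saa4 over time on the high fat diet (0.0473) then gained a call in limma. The average call count, 4 higher, was 2 without ZT4 or ZT12 samples and 2 at an adjusted p under 0.01, and 2 to 5 with single arrays left out. The count of 2 lower was 4 with median centring, 1 at an adjusted p under 0.01 and 1 without ZT12, ZT16 or ZT20, and 2 to 3 with single arrays left out. Under the 0.01 threshold the calls were 1 (ZT0, higher), 1 (ZT4, higher), 0 (lower at ZT12, ZT16 and ZT20) and 1 (time on chow). Array quality weights called 5 higher and 1 lower at ZT4, 1 lower at ZT8, 2 at ZT16, 3 at ZT20, 4 in the interaction, 5 for time and 2 for rhythm on the high fat diet and 1 for the difference in rhythm. Lower calls at ZT16 were 0 with no filter and 2 without the 4 arrays of lowest weight, and at ZT20 they were 0 with median centring, no filter, an offset of 1 or without those 4 arrays. With single arrays left out, counts ranged from 0 to 3 (ZT0, higher), 1 to 3 (ZT4, higher), 2 to 3 and 0 to 1 (ZT12, higher and lower), 0 to 2 (ZT16 and ZT20, lower), 0 to 1 (interaction) and 2 to 5 (time on the high fat diet), and stayed at 2 for time and rhythm on chow and at 0 for the other tests. The causes were not tested. Of all genes called for the average diet effect, 53.5% were higher in the values used, 30% with median centring, 46.9% with quantile normalization and 48.7% with centring over the tested genes, an alternative chosen after seeing the data. Counts over all genes ranged from 2592 to 4259 for the average diet effect (2937 here), 54 to 1716 at ZT8 (108), 69 to 1862 for the interaction (88), 270 to 1806 at ZT0 (993), 258 to 1082 at ZT4 (515), 291 to 1205 at ZT12 (759), 96 to 1336 at ZT16 (310), 121 to 821 at ZT20 (285), 2287 to 4805 and 1854 to 6149 for time on chow and the high fat diet (2926 and 2340), 1069 to 2802 for rhythm on the high fat diet (1540) and 1 to 185 for the difference in rhythm (4). Saa1 fell below the filter at the 50th percentile and has no value there.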
